A study of Sus scrofa with 2 samples.

Results

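KIT, its ligand KITLG and 8 regulators of spermatogonial differentiation (STRA8, SOHLH1, SOHLH2, DMRT1, DMRTB1, RARA, RARG and ALDH1A2) were examined for ZBTB16 occupancy in pig immature spermatogonia. The members were taken by gene symbol: every peak that the authors assigned to one of these 10 genes was kept, whatever its class. This gave 7 of the 10273 peaks of replicate 1 and 5 of the 7301 peaks of replicate 2, spread over 6 of the 10 genes. The study profiled ZBTB16, also called PLZF, by CUT&Tag, in which an antibody directs a transposase to the chromatin sites of its target and the released fragments are sequenced. Both libraries came from wild-type cells of pig testis, labelled as immature spermatogonia, with 100000 cells each and no treatment named in the labels, and they form 1 group of 2 replicates. The age of the animals, any pooling, and whether the replicates came from separate animals or cultures were not given in the labels. An IgG control is described in the protocols and was not analysed here. Peaks of a bound factor do not measure expression, so the labelled cell type could not be checked against its markers. All positions are on Sscrofa11.1.

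Spermatogonia leave the undifferentiated state when retinoic acid reaches them. ALDH1A2 is an enzyme that makes retinoic acid, RARA and RARG are nuclear receptors that bind it, and STRA8 is a retinoic acid-induced gene of differentiation and meiotic entry. KIT, a receptor tyrosine kinase, marks differentiating spermatogonia and answers to KITLG, which Sertoli cells present. SOHLH1 and SOHLH2 are basic helix-loop-helix factors that promote differentiation, while DMRT1 and DMRTB1 are DM-domain factors that act around the choice between mitosis and meiosis. In mouse, ZBTB16 has been linked to repression of KIT.

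Of the 10 genes, 3 had an assigned peak in both libraries: KIT, KITLG and ALDH1A2. STRA8 and RARG had one in replicate 1 only, and RARA in replicate 2 only. SOHLH1, SOHLH2, DMRT1 and DMRTB1 had none in either library. Of 16487 protein-coding genes with a unique symbol, 28.2% had an assigned peak in both libraries, and 8 of the 10 members belong to that set, 3 of them with a peak in both. In replicate 1 alone 5 of the 10 members, and 4 of those 8, had an assigned peak, against 44.9% of coding genes. In replicate 2 alone 4 of the 10, all among those 8, had one, against 34.1%. Neither library held a peak for 3 of the 8 and for 49.3% of coding genes. RARG is listed in the RefSeq gene table with noncoding transcripts only and SOHLH2 had no row there, so neither entered these percentages.

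Promoter peaks in both libraries were found at KITLG and ALDH1A2, thus at 2 of the 10 genes (2 of the 8 in the coding set), against 20.8% of coding genes. The promoter class of the authors' annotation reached up to 2995 bp upstream of the transcription start site (TSS) in these lists. Replicate 1 held promoter peaks at KITLG, RARG and ALDH1A2 (3 of 10, and 2 of the 8, against 32.8%). Replicate 2 held them at KIT, KITLG, RARA and ALDH1A2 (4 of 10, and 4 of the 8, against 24.9%). Which members carried a promoter peak therefore changed with the library for KIT, RARA and RARG. Peaks in a gene or within 3 kb of it were also counted whichever gene they were assigned to, since the authors gave each peak to 1 gene. This left KIT, KITLG and ALDH1A2 in both libraries, against 36.5% of 16294 coding genes placed on chromosomes. Of the 8 members in the coding set, SOHLH1 has no chromosome in the gene table and is outside this smaller set.

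The members' peaks were set beside the medians of their lists, by fold and by fragments at the summit. By definition, as many peaks of a list lie below its median as above it. Fold enrichment is the authors' ratio of summit signal to the background of their peak caller. It was 3.64 to 5.86 at the 7 replicate 1 peaks, and 5 of them lay below the list median of 4.98. All 3 replicate 1 peaks of KIT were among these 5. These counts were not tested. In replicate 2 the fold was 3.35 to 5.66, with 3 of 5 peaks below the list median of 5.0. The number of fragments at the summit, recovered from the deposited values, had a median of 16 at the member peaks of replicate 1 and of 15 at those of replicate 2, against 16 and 14 over the whole lists. RARG in replicate 1 and RARA in replicate 2 stood highest by fragments, at percentiles 84.9 and 78.1 of their lists.

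**Figure D1:**
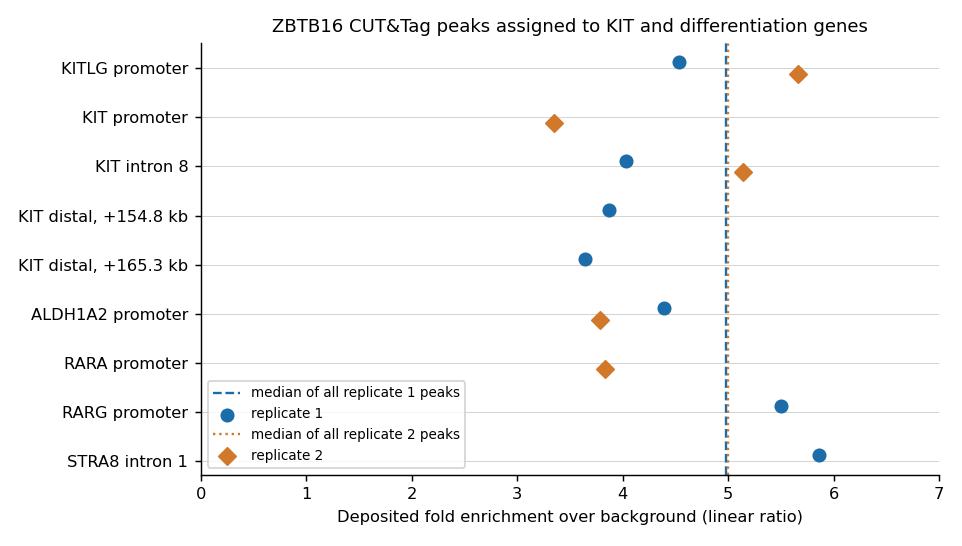
Deposited fold enrichment (linear ratio, x axis) of each peak assigned to a member (rows), with circles for replicate 1 and diamonds for replicate 2, and dashed and dotted lines at the medians of all peaks of replicate 1 and replicate 2. Only RARG and STRA8 in replicate 1, and KITLG and the KIT intron in replicate 2, lay above the median of their own list.

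KIT (chromosome 8, 41402334 to 41492306, plus strand) carried the most peaks of any member, 3 in replicate 1 and 2 in replicate 2, and only the one in intron 8 of 21 recurred. In replicate 1 this intronic peak (41469982 to 41470381) had a fold of 4.03 from 14 fragments at its summit (exact 95% Poisson interval 7.65 to 23.5). In replicate 2 (41469992 to 41470614) it had a fold of 5.14 from 16 fragments (9.15 to 26.0). The intervals overlapped. The peaks shared 390 bp, which is 97.5% of the replicate 1 peak and 62.6% of the replicate 2 peak. Their near edges lay 67.6 kb and 67.7 kb downstream of the TSS. Their summits were 295 bp apart, while the median gap over all 5468 replicate 1 peaks with an overlapping partner was 96 bp and the 90th percentile 317 bp. Among the 702 of these with 12 to 14 fragments, the median gap was 145.5 bp and the 90th percentile 356.8 bp.

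How often an intronic peak such as that of KIT recurred depended on the library it was counted from. Of 1140 intronic peaks of replicate 1, 22.6% overlapped a replicate 2 peak, against 53.2% of all replicate 1 peaks. Among the 387 intronic peaks with 12 to 16 summit fragments, as at KIT, it was 23.3%. In the opposite direction, 39.4% of 695 intronic replicate 2 peaks were overlapped, and 75.6% of the 86 with 14 to 18 fragments. With the fold also within 0.5 of that of KIT, the shares were 21.9% of 146 peaks in replicate 1 and 88.2% of 34 in replicate 2. In all, 148 coding genes (0.898%) had an intronic peak that overlapped an intronic peak of the same gene in the other library. Of these 148, 34 (23%) had a promoter peak in both libraries, near the 20.8% of all coding genes. A promoter peak in replicate 2 only was found at 3 of the 148 (2.03%), KIT among them. Of all coding genes, 24.9% had a promoter peak in replicate 2, whether or not replicate 1 had one.

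At the KIT promoter a peak was called in replicate 2 only (41401932 to 41402595). It spanned the TSS, and its summit lay 277 bp upstream. With a fold of 3.35 from 15 fragments (8.40 to 24.7) it stood at percentile 1.08 of the replicate 2 folds, but at percentile 55.4 by fragments. Its local background was 3.78 fragments, against a list median of 2.0. Most promoter peaks of that height were found in both libraries: 88.3% of the 1606 promoter peaks of replicate 2 with 13 to 17 fragments were overlapped in replicate 1. Of the 67 among them whose fold was also within 0.5 of that of KIT, 77.6% were overlapped. The KIT promoter peak thus belonged to the minority without a partner.

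Replicate 1 also held a pair of intergenic peaks beyond the 3′ end of KIT. They began 154.8 kb (41557134 to 41557664) and 165.3 kb (41567589 to 41567907) downstream of the TSS. Their folds were 3.86 from 19 fragments (11.4 to 29.7) and 3.64 from 16 fragments (9.15 to 26.0). Neither had a partner in replicate 2. Of the intergenic peaks of replicate 1 of like height, 56.0% of 109 (17 to 21 fragments) and 41.5% of 246 (14 to 18 fragments) were overlapped. Of the 196 assigned over a distance above 100 kb, whose median was 9 fragments, 14.8% were. KIT was the gene assigned by the authors, and no measurement here ties these sites to it.

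**Figure D2:**
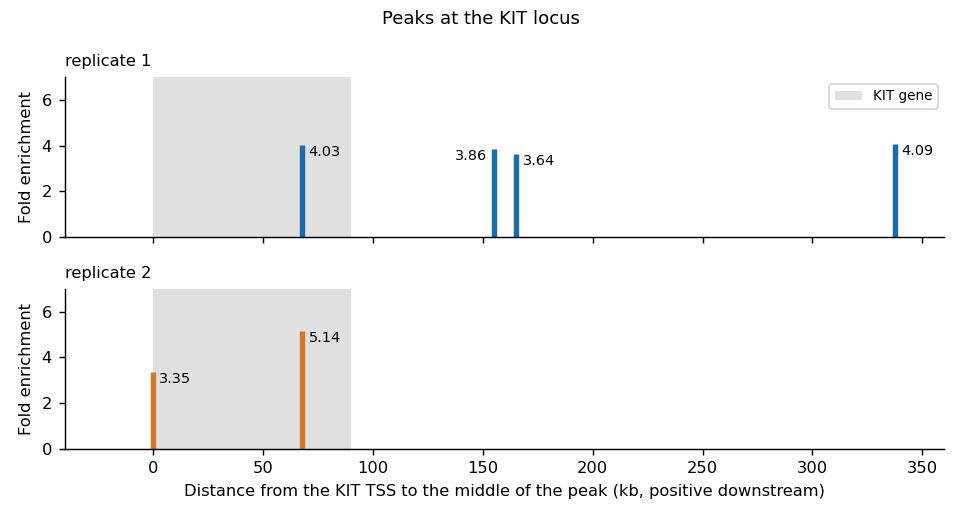
Peaks within 250 kb of KIT in replicate 1 (upper panel) and replicate 2 (lower panel), by distance of the peak middle from the TSS in kb (x axis) and deposited fold enrichment (y axis, starting at 0, values printed), with the gene in grey. The intronic peak appears in both panels, the promoter peak only in replicate 2 (3.35) and the 2 downstream peaks only in replicate 1 (3.86 and 3.64); the peak at the right edge (4.09) was assigned to another gene.

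KITLG, the KIT ligand (chromosome 5, 94016992 to 94110219, plus strand), had 1 promoter peak per library, and these overlapped. In replicate 1 the peak (94017155 to 94017522) had a fold of 4.54 from 12 fragments (6.20 to 21.0). In replicate 2 (94016971 to 94017614) the fold was 5.66 from 14 fragments (7.65 to 23.5). The replicate 2 peak was the tallest by fold among the member peaks of that library, at percentile 69.9 of all its folds. The narrower replicate 1 peak lay wholly inside it over 368 bp, with the summits 206 bp apart. The authors' assignment used different transcripts in the 2 lists, with starts at 94017403 in replicate 1 and 94016992 in replicate 2, and each summit lay downstream of its start, by 34 bp and 239 bp. Of the 1518 promoter peaks of replicate 1 with 10 to 14 fragments 36.4% were overlapped in replicate 2, and of the 1726 of replicate 2 with 12 to 16 fragments, 85.7% were overlapped in replicate 1.

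ALDH1A2, the retinoic acid-synthesising enzyme (chromosome 1, 113932722 to 114037059, plus strand), was the other member with a promoter peak in both libraries. Replicate 1 had a broad peak of 983 bp (113932589 to 113933571) with a fold of 4.39 from 13 fragments (6.92 to 22.2). Replicate 2 had a peak of 283 bp (113933045 to 113933327) with a fold of 3.79 from 8 fragments (3.45 to 15.8). The replicate 2 peak lay entirely within the replicate 1 peak but covered 28.8% of it. It was the weakest member peak by fragments, at percentile 7.23 of its list, and its −log10 q-value of 1.87 lay near the lowest deposited value of 1.31. With a minimum of 2 on that scale ALDH1A2 was left with a peak in replicate 1 only. The intervals on the fragments overlapped between the libraries.

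**Figure D3:**
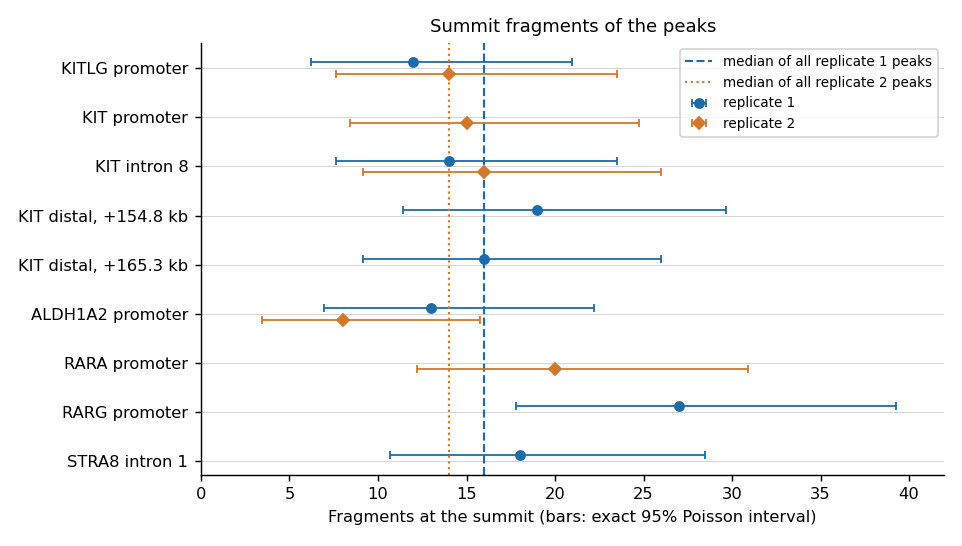
Fragments at the summit of each member peak (x axis) with exact 95% Poisson intervals as bars, circles for replicate 1 and diamonds for replicate 2, and vertical lines at the medians of all peaks (16 in replicate 1 and 14 in replicate 2). The intervals of the libraries overlap at KITLG, the KIT intron and ALDH1A2, and RARG in replicate 1 stands highest at 27 fragments.

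The retinoic acid receptors each had a promoter peak in a single library, and not the same one. RARA (chromosome 12, 22047449 to 22085759, minus strand) had a peak over its TSS in replicate 2 (22085311 to 22085798), with a fold of 3.83 from 20 fragments (12.2 to 30.9) and its summit 154 bp downstream of the start. It had the most fragments of the replicate 2 member peaks, over a local background of 4.49 fragments. Of the 939 promoter peaks of replicate 2 with 18 to 22 fragments, 97.0% were overlapped in replicate 1. Of the 30 whose fold was also within 0.5, 80% were. No replicate 1 peak lay in RARA or within 3 kb of it.

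RARG (chromosome 5, 18436267 to 18458625, minus strand) showed the reverse. Its replicate 1 peak (18447503 to 18448154) had a fold of 5.50 from 27 fragments (17.8 to 39.3), the most fragments at any member and percentile 84.9 of the list. It was classed as promoter because it spanned the start of an internal noncoding transcript at 18447645. The summit lay 10773 bp downstream of the outermost start of the gene. Of the 659 promoter peaks of replicate 1 with 25 to 29 fragments, 89.2% were overlapped in replicate 2, and RARG was not.

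STRA8 (chromosome 18, 14055258 to 14080399, minus strand) had a peak in intron 1 of 10 in replicate 1 only (14078443 to 14078931). Its fold of 5.86 was the highest at any member in either library, from 18 fragments (10.7 to 28.4) over a background of 2.24. The near edge lay 1468 bp and the summit 1823 bp downstream of the TSS. Of the 145 intronic peaks of replicate 1 with 16 to 20 fragments, 42.8% were overlapped in replicate 2.

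Among the 7 replicate 1 peaks the 3 that recurred had 12, 13 and 14 fragments, and the 4 that did not had 16, 18, 19 and 27. Over the whole replicate 1 list recurrence went the other way, from 23.1% at 10 to 12 fragments to 85.7% at 25 to 27. That list mixes classes, with 66.9% of promoter, 22.6% of intronic and 25.3% of intergenic peaks overlapped. Of the 4 member peaks that did not recur, only that of RARG was a promoter peak. In replicate 2 the peaks that recurred had 8, 14 and 16 fragments and those that did not had 15 and 20. In all, 3 of 7 replicate 1 peaks (42.9%) were overlapped, against 53.2% of the list, and 3 of 5 replicate 2 peaks (60%), against 75.0%. With so few peaks these shares were not tested. The lowest background per library, a stand-in for depth, was 1.23 times as high in replicate 1 as in replicate 2. The parts of depth and of peak class in these differences were not tested. Weaker occupancy in all cells and occupancy in fewer cells cannot be told apart in libraries made from 100000 cells each.

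**Figure D4:**
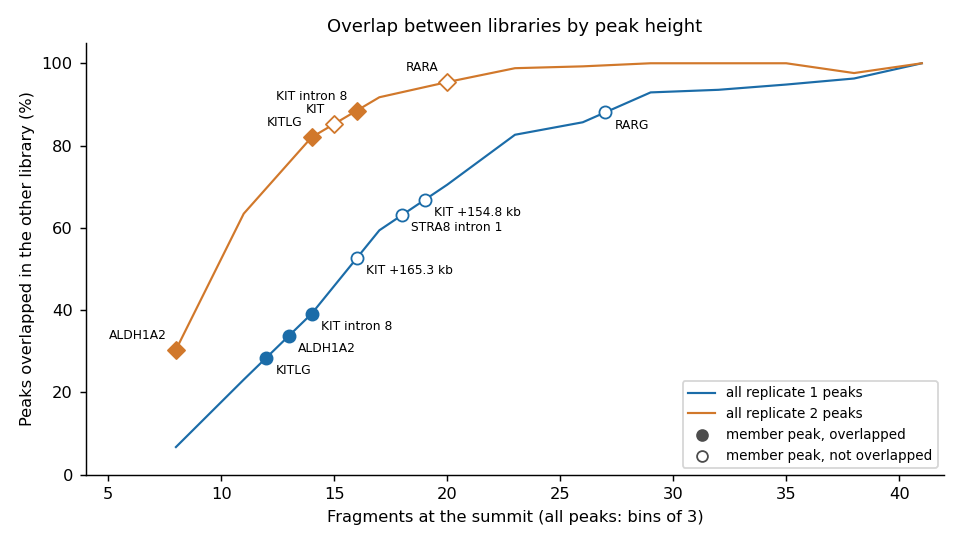
Share of all peaks overlapped in the other library (y axis, percent) by fragments at the summit (x axis, bins of 3 fragments), as a line per library, with the member peaks placed on the line of their library at their own fragment count; circles are replicate 1, diamonds replicate 2, filled where the member peak itself was overlapped. The filled circles (12 to 14 fragments) lie below all open circles (16 to 27 fragments) on the rising replicate 1 line.

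DMRT1, DMRTB1, SOHLH1 and SOHLH2 had no assigned peak. DMRT1 spans 112 kb on chromosome 1 (220841485 to 220953442). Of 1257 coding genes of 80 to 120 kb, 54.8% had an assigned peak in at least 1 library, among them KIT, KITLG and ALDH1A2. The nearest replicate 1 peak was at the KANK1 promoter, 93.9 kb beyond the upper end of DMRT1 (4.98-fold, 13 fragments). The nearest replicate 2 peak was intergenic, 108.7 kb before the lower end (4.55-fold, 8 fragments), and was assigned to DMRT2, a gene of the same family. Neither had a partner in the other library. DMRTB1 (chromosome 6, 158794954 to 158803931) had a peak nearby in each library. It lay 14.4 kb beyond the upper end in replicate 1 (4.53-fold, 9 fragments) and 14.1 kb beyond in replicate 2 (4.50-fold, 10 fragments), assigned in both lists to LOC100515900. These peaks shared 28 bp of their widths of 353 bp and 352 bp, and were classed as exon and promoter. For SOHLH1 the gene table gives no chromosome, and SOHLH2 had no row, so distances were not computed for them. Low peaks were mostly found in 1 library only, with 6.74% of replicate 1 and 30.4% of replicate 2 peaks of 7 to 9 fragments overlapped. For DMRT1 and DMRTB1 the absence means that no peak was detected at this depth, and for SOHLH1 and SOHLH2 only that no peak was assigned.

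The surroundings of the members differed. At KIT, KITLG, DMRT1 and ALDH1A2 no peak assigned to another gene lay within 50 kb of the gene in either library. KITLG was the sole peak within 250 kb in both libraries, the next being the CEP290 promoter 273.5 kb away (7.30-fold in replicate 1). RARA and RARG lay among other peaks, with 6 and 8 replicate 1 peaks and 7 and 8 replicate 2 peaks of other genes within 250 kb. The neighbours within 50 kb of RARA and RARG recurred, though the peaks of these genes did not. STRA8 lay 11.4 kb from the WDR91 promoter peak, which was found in both libraries (5.35-fold and 5.12-fold).

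**Figure D5:**
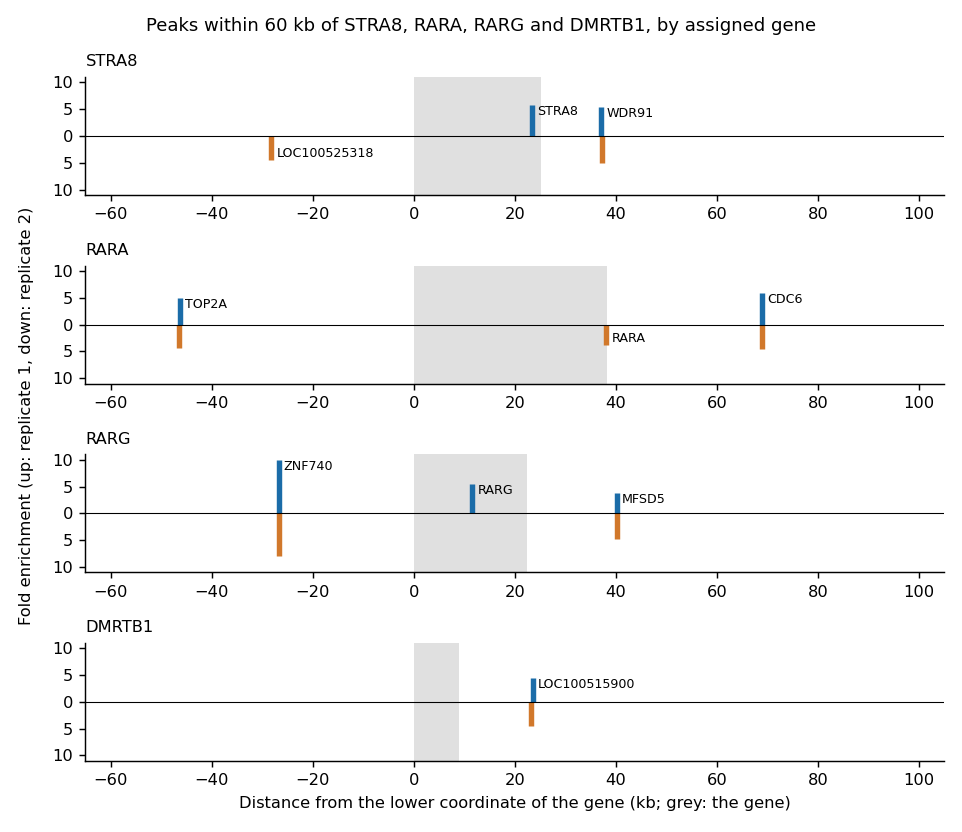
Peaks within 60 kb of STRA8, RARA, RARG and DMRTB1 (panels), by distance in kb from the lower coordinate of the gene (x axis; the gene is grey), with deposited fold enrichment upward for replicate 1 and downward for replicate 2 and the assigned gene named. STRA8 and RARG have a bar upward only (5.86 and 5.50), RARA downward only (3.83), and the bars of WDR91, TOP2A, CDC6, ZNF740, MFSD5 and LOC100515900 appear on both sides.

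Other genes of these pathways were counted in the same way, by promoter peaks in both libraries (20.8% of coding genes) or any assigned peak in both (28.2%). The folds given are those of the strongest peak of a gene in replicate 1 and replicate 2. Of 30 genes of KIT signalling, 8 had a promoter peak in both libraries (26.7%) and 9 any peak (30%). The strongest were CBLB and CBL, ubiquitin ligases that turn over activated receptors (9.58-fold and 9.59-fold, 7.29-fold and 8.17-fold), and STAT3 (7.18-fold and 10.0-fold). PIK3R2, a regulatory subunit of PI3-kinase (6.71-fold and 6.45-fold), and PTPN11, the phosphatase SHP2 (7.61-fold and 6.34-fold), followed. The adaptor SHC1, the catalytic subunit PIK3CA and the kinase AKT1 had no assigned peak. Promoters of several genes downstream of KIT thus carried higher folds than any peak of KIT, while the list's share was near that of all genes.

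Of 28 genes of the retinoic acid pathway, 3 had a promoter peak in both libraries (10.7%), 7 had any peak in both (25%) and 16 had none. Those with a peak in both included the nuclear receptor coactivators NCOA2, with intronic peaks (7.07-fold and 7.62-fold), and NCOA3, at its promoter (6.90-fold and 5.87-fold). DHRS3, which converts retinaldehyde back to retinol, had intronic peaks (4.81-fold and 5.84-fold). PPARD, a nuclear receptor, had its strongest peak in an exon in replicate 1 (4.22-fold) and at the promoter in replicate 2 (4.54-fold). The receptors RARB and RXRA and the enzyme ALDH1A1 had no assigned peak.

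Of 19 DMRT and germline helix-loop-helix relatives, 5 had a promoter peak in both libraries (26.3%) and 7 any peak (36.8%). TCF3, an E protein of the kind that pairs with helix-loop-helix factors, led with 5.67-fold and 6.08-fold at its promoter. TCF12, another E protein, had 5.05-fold in its 5′ UTR in replicate 1 and 5.97-fold at an intergenic peak in replicate 2. The inhibitor ID1 had intergenic peaks of 4.44-fold and 6.20-fold. DMRTC2, a DMRT family gene, had promoter peaks of 4.85-fold and 4.33-fold. ID4, a marker of spermatogonial stem cells, had a promoter peak in both libraries. Its strongest peak was intergenic in replicate 1 (4.81-fold) and at the promoter in replicate 2 (3.89-fold). DMRT3, DMRTA2 and ID2 had no assigned peak.

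Of 13 further genes of differentiating and pre-meiotic spermatogonia, 0 were called by promoter peaks in both libraries and 2 by any peak in both (15.4%). These were TEX14, needed for intercellular bridges, with intronic peaks (9.09-fold and 7.68-fold), and the DNA methyltransferase DNMT3A, with intergenic ones (5.38-fold and 5.02-fold). DNMT3L, UHRF1 and KDM1A had no assigned peak. For comparison, 4 of 18 self-renewal transcription factors had a promoter peak in both libraries (22.2%). They were ETV5 (8.42-fold and 8.29-fold), TAF4B, EGR2 and ETV4 (5.72-fold and 3.52-fold), while FOXO1, LHX1 and POU3F1 had none. KITLG and ALDH1A2 make 2 of 10 for the members, and 2 of the 8 in the coding set, from which the related lists were drawn. Over the related lists the share ran from 0 of 13 genes here to 26.7% of the KIT signalling genes. Differences between the lists were not tested.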

How the data were processed

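Per the labels' protocols, CUT&Tag libraries were made from 100000 cells each, and per the submitters' processing notes the build was Sscrofa11.1. Names of the aligner, the peak calling software and its control sample were not given in the sources used here. Each library has its own deposited peak list. Per the file headers a peak has positions, a fold enrichment (a linear ratio) and 1 assigned gene, and the authors also gave its −log10 p-value, its −log10 q-value and a score that restates the latter.

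Peaks were joined to members by the assigned symbol. Fragments and background at each summit were solved from fold = (fragments + 1)/(background + 1) and a Poisson tail. A whole number fitted 100% of peaks of both lists within a relative tolerance of 1e-05. On 400 simulated peaks 100% were recovered. Intervals are exact Poisson at 95% and cover counting error only. Fragment counts were not scaled for depth, and overlap of the intervals between libraries was not a test of equal height. Overlap means at least 1 bp. Summit positions may be off by 1 bp. Peaks of like height are those within 2 fragments. Chromosomes 19 and 20 of the files were read as X and Y, and assigned genes then lay on the chromosome of the gene table for all 10042 and 7125 peaks matched. The work used scipy 1.17.1, pandas 2.3.3 and numpy 2.4.6 under Python 3.11.15, with figures from matplotlib 3.10.9.

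Counts of members are set beside the share of all coding genes, with no test and no mean or SD over the 2 libraries. The members, the lists and the rules were chosen with earlier results of these data known. Named are all members, up to 5 genes per related list with the highest lower fold among those with a peak in both libraries, up to 3 without a peak in list order, and neighbours of members. Other neighbouring genes were named after their values were seen. A result covered by these rules is not reported here. Alternatives were a stricter q-value, a fold at or above the median, equal list lengths, each library alone, peaks near genes whatever their assignment, other windows, another set of genes and reciprocal overlap.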

Additional observations from a re-analysis of the deposited data

How the results depend on the processing

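Of 20 alternatives over 4 counts, 14 stayed within 1.5 times the main count and 6 did not. Among the 14 is the comparison with all gene symbols, which changes only the share beside the count and could not move the count. With only peaks at or above the median fold of their list, 0 members kept any assigned peak in both libraries (main count 3, 14.2% of coding genes) and 0 a promoter peak (main count 2, 11.6% of coding genes). With a −log10 q-value of at least 2, ALDH1A2 was lost. KITLG alone then kept a promoter peak in both libraries, so the count was 1 (20.5% of coding genes). KIT and KITLG (2) kept any assigned peak (27.4% of coding genes). Replicate 1 alone gave 5 members with any assigned peak (44.9% of coding genes) and 3 with a promoter peak (32.8%). It gave 5 with a peak in or near the gene (53.8%). Replicate 2 alone gave 4 members on each count, against 34.1%, 24.9% and 41.6% of coding genes in that order. RARG, counted in replicate 1, is not in the coding set. For any assigned peak and for peaks in or near the gene, replicate 1 alone adds STRA8 and RARG and replicate 2 alone adds RARA. For promoter peaks, replicate 1 alone adds RARG and replicate 2 alone adds KIT and RARA. Under a reciprocal overlap of 0.5 of both peaks, 2 of the 3 recurrent peaks, those of KIT and KITLG, were still shared. Over all replicate 1 peaks the share was 43.8% by that rule, against 53.2% by the main rule. Equal list lengths changed neither the count with any assigned peak (25% of coding genes) nor that with a promoter peak (19.2%). A window of 10 kb (43.5%) or the gene body alone (29%) left the 3 members with a peak in or near the gene. Against all gene symbols, 18% had an assigned peak in both libraries. The planned description of promoter sequences by CpG ratio or GC content was not run. No paired analysis was possible because there was 1 group. Most member peaks rested on 8 to 20 fragments, which limits every statement on presence in 1 library only.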

Other observations

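Genes beside the retinoic acid receptors carried recurrent peaks of their own. Next to RARA these were TOP2A, the DNA topoisomerase of dividing cells (4.96-fold and 4.40-fold, 45.8 kb before the lower end), and CDC6, a replication licensing factor (5.91-fold and 4.59-fold, 30.3 kb beyond the upper end). THRA, the thyroid hormone receptor alpha gene, lies farther off on the same side of RARA as CDC6. It had an intronic peak in replicate 2 only (4.12-fold, 12 fragments), 197.8 kb beyond the upper end of RARA. Next to RARG, ZNF740 had one of the taller peaks of the neighbourhood (9.90-fold from 42 fragments and 7.99-fold from 29), in its 5′ UTR 26.5 kb before the lower end. The MFSD5 promoter, 17.4 kb beyond the upper end, had 3.80-fold and 4.83-fold. Farther off, 233.1 kb before the lower end of STRA8, the promoter of CNOT4, a CCR4-NOT-associated ubiquitin ligase, had 7.41-fold and 6.63-fold.

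Beyond KIT on chromosome 8, the nearest replicate 2 peak of another gene was at the promoter of KDR, the VEGF receptor kinase, 363.7 kb from the upper end of KIT. It had a fold of 5.12 from 13 fragments and overlapped a replicate 1 peak.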
